A study of Mus musculus with 4 samples.

Results

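Peaks in short internal coding exons were the m6A peaks of mouse natural killer (NK) cells that the deposited list assigns to an exon which is neither the first nor the last of a protein-coding transcript and is under 400 nt long. The assigned exon is called the named exon here. Of 20727 distinct peaks in 12351 genes, 1263 (6.09%) met these criteria, in 1098 genes. They made up 86.3% of the 1463 peaks assigned to an internal exon of a coding transcript, and the other 200 lay in exons of at least 400 nt. Each of the 1263 named exons overlapped the coding sequence of its transcript. The rule used exon length and no measured value, but exon length limits whether a peak can lie within its exon and how far it can be from a junction.

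Splenic NK cells of wild-type C57BL/6 mice gave 2 m6A immunoprecipitates and 2 libraries of input RNA. The study describes that the cells had been expanded in the mice for 1 to 2 months with pLIVE-IL-15, an IL-15 expression plasmid that all 4 libraries therefore share, and were then isolated by cell sorting. The mice used throughout the work were 6 to 10 weeks old, and the labels do not say whether replicates came from separate animals. A single peak list was deposited for the 4 libraries, so a peak carries 1 fold enrichment (immunoprecipitate over input) and 1 unadjusted p-value, without a replicate error, and the depth of each library is unknown. All comparisons between sets of peaks are therefore descriptions of this list without a test, and 95% Wilson intervals of shares cover counting error only. Of the marker genes of the possible cell types, 10 of 10 for NK cells carried a peak, against 4 of 7 for T cells (none on Cd4, Cd8a or Cd8b1), 3 of 6 for B cells, 7 of 7 for myeloid cells and 3 of 5 for erythroid cells. A peak is not a level, and the part of other cell types in the peaks was not tested. Among these markers, only Cd3d had a peak in a short internal coding exon.

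m6A is written on nascent mRNA by the METTL3 and METTL14 complex at adenosines within the DRACH consensus, most often at GGAC. Exon junction complexes, which splicing deposits near the junctions between exons, are known to keep the writer away, so that the mark is usually sparse in short internal exons and frequent in long internal exons and around the stop codon. A retained intron is one that stays in a polyadenylated transcript, which joins the exons on both sides into a single longer exon.

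The sequences below show GGAC or DRACH sites under the peaks discussed most. They were read on the transcribed strand from the GRCm38 reference genome, each is the GGAC (or, failing that, DRACH) site nearest to the centre of the peak within the named exon, and the capitals mark the site. Ribosomal protein genes, Fbl and H2-Ab1 held highly significant peaks. The GGAC marked in Fbl is followed by G and is therefore not a DRACH site.
Rpl37a exon 2 (chr1:72711700-72711727, plus strand): tcggcaagtacgGGACccgctatggtgc
Rps25 exon 3 (chr9:44408697-44408724, plus strand): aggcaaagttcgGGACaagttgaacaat
Rps25 exon 2 (chr9:44408032-44408060, plus strand): caaaaaggataaAGACCcagtaaataaat
Rpl35a exon 4 (chr16:33058794-33058821, plus strand): gcaaaggccattGGACacagaatccgtg
Fbl exon 2 (chr7:28174590-28174617, plus strand): ggctttggcggtGGACgaggaggctttg
H2-Ab1 exon 2 (chr17:34264960-34264987, plus strand): gcgggccgagctGGACacggtgtgcaga

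The next set belongs to peaks of very high fold enrichment that touched no coding exon other than the named one.
Inip exon 2 (chr4:59782254-59782272, minus strand): gcaaatccttcaGGACaag
Rock2 exon 6 (chr12:16948477-16948505, plus strand): acacagcagttgGAACTcccgactacata
Myb exon 9 (chr10:21146419-21146440, minus strand): acacaGAACCacacttgcagct
Pole exon 30 (chr5:110317801-110317829, plus strand): ccaggcttcagaAAACAgtctgagtctct

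The last set comes from NK receptor genes and from peaks that began and ended inside the named exon, at Map2k1 and Eif3a.
Klrc2 exon 5 (chr6:129656866-129656893, minus strand): cactggtctcatGGACtggaatccttcg
Klre1 exon 6 (chr6:129584208-129584236, plus strand): gtggctgtgggaAGACCattcggttctac
Klra3 exon 5 (chr6:130330160-130330188, minus strand): tggatgtaaagcGAACTgccagcattata
Map2k1 exon 2 (chr9:64214490-64214518, minus strand): cagaaggtggggGAACTgaaggatgatga
Eif3a exon 17 (chr19:60768802-60768830, minus strand): gagcgagtcaagAAACTagaagaagtaga

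The short exon peaks were of ordinary strength for the list, but few of them were local to the exon they name. Their fold enrichment ranged from 1.04 to 360, with a median of 2.41 and an interquartile range of 1.44 to 7.59, against a median of 2.66 for all peaks. A fold enrichment of at least 5, called strong here, was found for 398 peaks (31.5%, interval 29.0 to 34.1), and the share among all peaks was 34.6%. A p-value under 0.001 was given for 762 (60.3%, interval 57.6 to 63.0), against 61.5% of all peaks. Both values belong to the peak as a whole and not to its part in the named exon. The median named exon was 135 nt long, with extremes of 27 and 399 nt. From its first to its last base a peak spanned 1048 nt of the genome at the median, introns included, and the longest span was 88559 nt. The exonic part, that is the bases of the span that are exon in the named transcript, had a median of 121 nt and reached 3012 nt over 22 exons. The peak covered 49.4% of the named exon at the median, and the whole of it in 148 cases (11.7%).

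Peaks were grouped by where their ends lay, and the groups differed widely in fold enrichment. Both ends lay inside the named exon for 143 peaks (11.3%, interval 9.69 to 13.2). Both ends lay in exons of the named transcript, at least 1 of them in another exon, for 592 (46.9%, interval 44.1 to 49.6), here called exon chains. In 371 (29.4%, interval 26.9 to 31.9) the ends that fell outside coding exons lay in an exon of a retained-intron transcript of the same gene. In the remaining 157 the ends were in another coding isoform (42), another non-coding isoform (98) or outside any annotated exon of the gene (17). The spans of all 17 held exons of other genes. The median fold enrichment was 1.53 within the exon, 2.60 in chains and 3.19 in the retained-intron group. Strong peaks made up 4 of 143 within the exon (2.80%, interval 1.09 to 6.97), 178 of 592 chains (30.1%, interval 26.5 to 33.9) and 164 of 371 in the retained-intron group (44.2%, interval 39.2 to 49.3). The last of these intervals lay above the 34.6% of all peaks, and that of the within-exon peaks lay far below it. Chains and the retained-intron group together held 342 of the 398 strong peaks, while within-exon peaks held 1.01% of them.

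**Figure D1:**
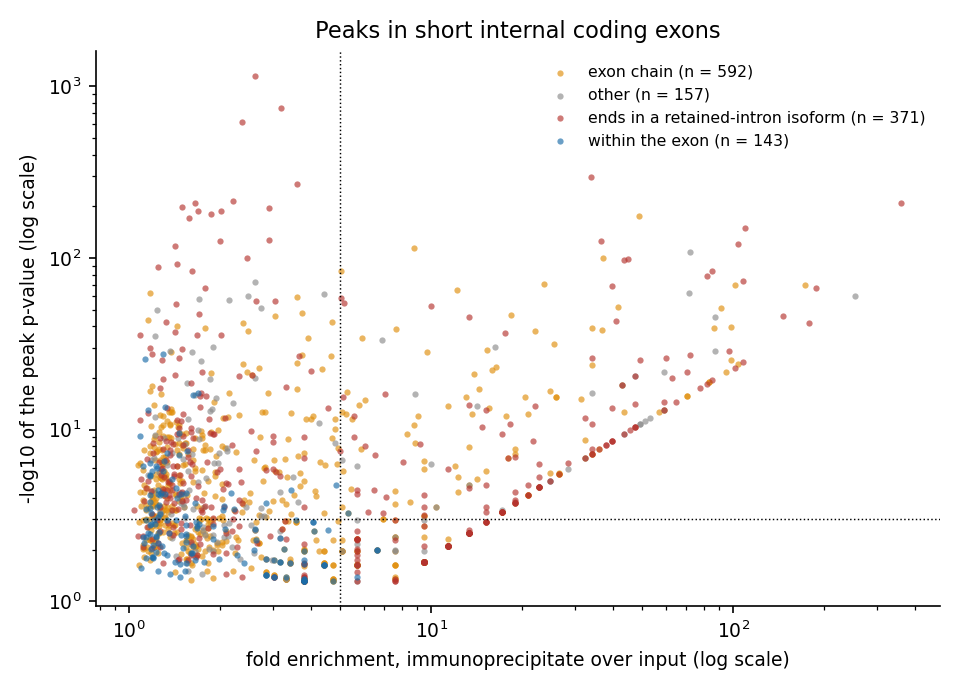
Fold enrichment (x axis, log scale) against -log10 of the peak p-value (y axis, log scale) for the 1263 peaks in short internal coding exons, 1 point per peak, coloured by where the ends of the peak lay, with dotted lines at a fold enrichment of 5 and a p-value of 0.001. Peaks within the exon stay at or below a fold enrichment of 6.64, and the most significant peaks, at the top left, belong to the retained-intron group.

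**Figure D2:**
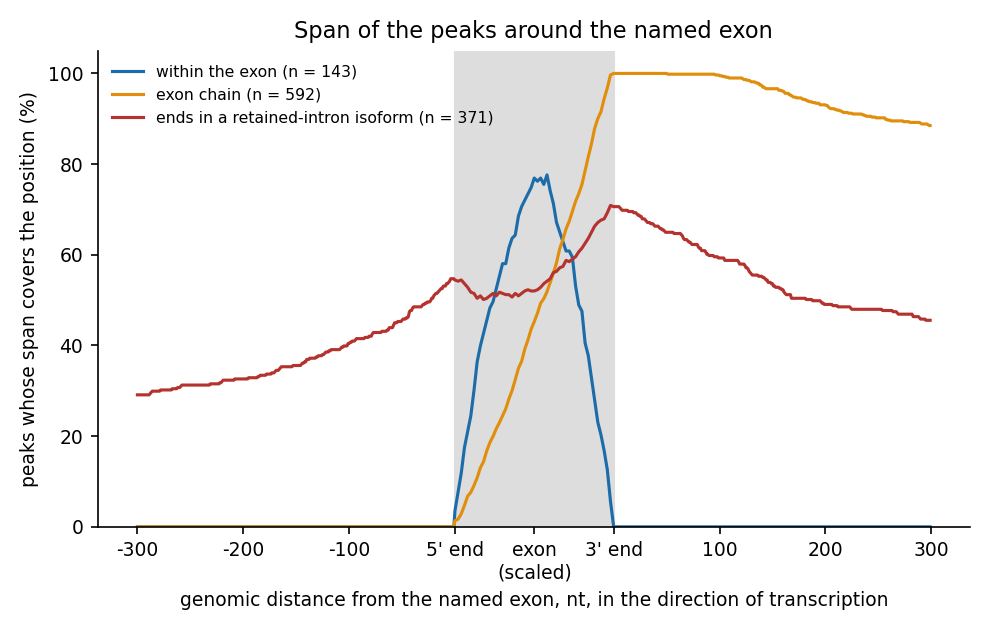
Share of peaks (y axis, %) whose span covers each position of the named exon, scaled to a common width (grey), and of the genomic sequence up to 300 nt on each side (x axis), for the 3 largest groups. Chains start inside the named exon and run downstream. Peaks of the retained-intron group extend downstream only (168), upstream only (109) or to both sides (94). Of this group, 49.1% cover the position 30 nt before the exon and 67.7% the position 30 nt after it.

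Within-exon peaks were narrow and weak, and they became more frequent with the length of the exon. Their median span was 90 nt in exons with a median of 192 nt. They were 5 of 298 peaks in exons under 100 nt (1.68%), 75 of 737 in exons of 100 to under 200 nt (10.2%), 42 of 184 in exons of 200 to under 300 nt (22.8%) and 21 of 44 in exons of 300 to under 400 nt (47.7%). A peak cannot lie within an exon shorter than itself, and the width of peaks was not matched between these classes. The median fold enrichment of all short exon peaks showed no such order, with 2.67, 2.38, 2.66 and 1.61 in the same classes. The strongest within-exon peaks, chosen after their values were seen, lay in Cep350 and Espn (6.64 each), which encode a centrosomal protein and an actin-bundling protein, Wnt10b (5.69), a WNT ligand, and Sirt4 (5.31), a mitochondrial sirtuin. Cep350, Espn and Wnt10b had log10 p-values between -2.00 and -1.38, and that of Sirt4 was -3.26. The most significant within-exon peak was in exon 6 of Hspa5, the chaperone BiP of the endoplasmic reticulum, which was enriched only 1.30-fold (log10 p = -27.5).

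**Figure D3:**
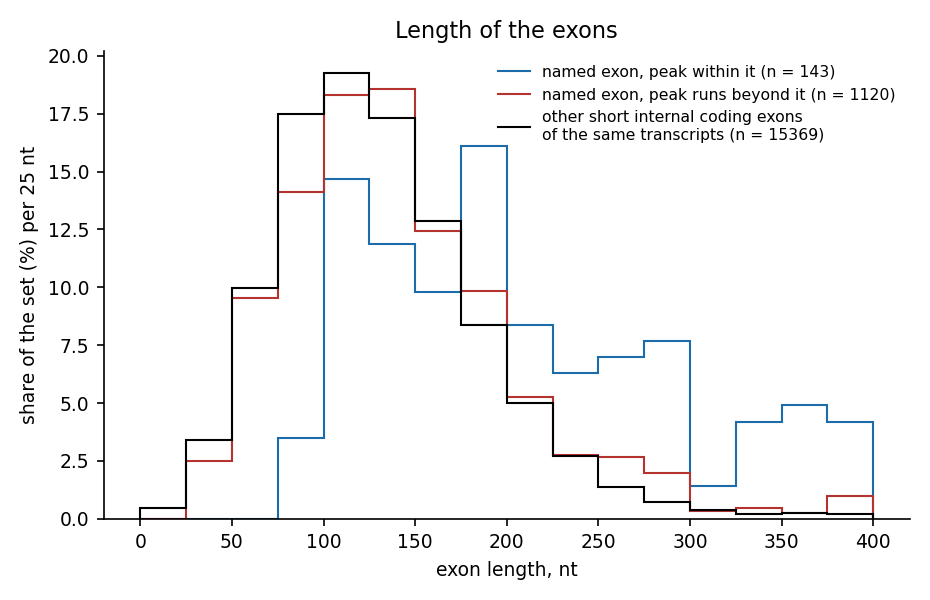
Length of the named exon (x axis, nt, bins of 25 nt) for the 143 peaks within it and the 1120 peaks that ran beyond it, and of the 15369 other short internal coding exons of the same transcripts, as the share of each set (y axis, %). Exons that hold a whole peak are longer, with a median of 192 nt, than the other exons of the same transcripts, with a median of 124 nt.

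In long internal exons most peaks began and ended inside the exon, a contrast that the limit on exon length partly fixes. Of the 200 peaks in exons of at least 400 nt, 146 (73.0%, interval 66.5 to 78.7) lay within the exon, 33 were chains and 10 were in the retained-intron group. The 146 had a median fold enrichment of 2.25, and 32 of them were strong (21.9%, interval 16.0 to 29.3), against 4 of 143 in short exons. In significance these 2 sets were alike. A p-value under 0.001 was given for 31.5% of within-exon peaks in long exons and 34.3% in short exons, with median log10 p-values of -2.15 and -2.51. Among strong peaks, 52.5% of those in long exons and 1.01% of those in short exons were within the exon. On the longest coding transcripts of the 10165 genes with a peak, short internal coding exons were 97.4% of such exons and 83.4% of their sequence. Of the peaks in internal coding exons 86.3% named a short exon, and of the within-exon peaks 49.5% did. Divided by these lengths, this came to 101 peaks per Mb in short and 80.8 in long exons, and to 11.5 within-exon peaks per Mb in short and 59.0 in long exons. The peaks were counted on the transcripts their labels name and the lengths on the longest transcripts, so these densities are approximate. The difference in median log2 fold enrichment between all short and all long exon peaks was small, at -0.21, and changed sign, to 0.19, among peaks with a p-value under 0.001.

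**Figure D4:**
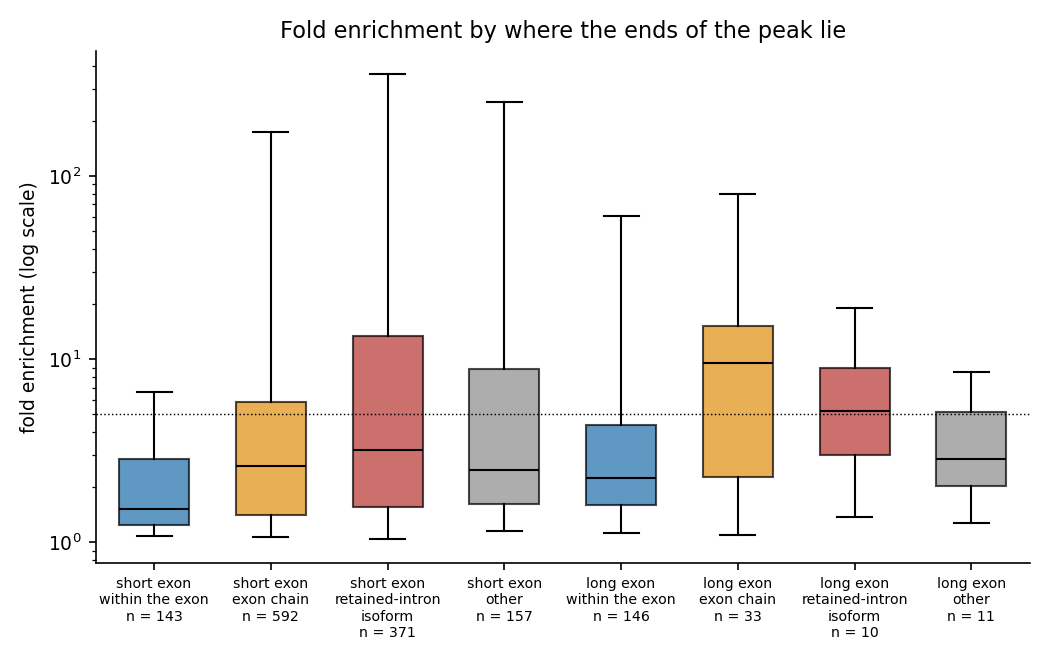
Fold enrichment (y axis, log scale) of peaks in short and long internal coding exons by where the ends of the peak lay, with boxes from the first to the third quartile, a line at the median, whiskers to the extremes and a dotted line at 5. Peaks within the exon have the lowest median among short exons (1.53) and also among long exons (2.25).

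Chains ran from the named exon into the exons that follow it. In 592 of 592 chains the named exon was the most upstream one, so the label gives where a chain begins and not where most of it lies. The exonic part was 180 nt at the median and the genomic span 1770 nt. The fold enrichment was higher in longer chains. Chains of 2 exons (366) had a median of 1.79 and 15.3% strong peaks, chains of 3 exons (141) had 3.79 and 41.1%, and chains of 4 or more (85) had 9.48 and 75.3% (interval 65.2 to 83.2). Significance did not rise in the same way. A p-value under 0.001 was given for 54.9%, 66.0% and 65.9% of these chains, and the median log10 p was -3.25, -5.17 and -5.15. The highest values, chosen after they were seen, were 173 in Actn3, the alpha-actinin of fast muscle fibres, over 8 exons, 104 in Gckr, the glucokinase regulator, over 8 exons, 101 in Sbf2 over 2 exons, and 98.6 both in Kif5a, a neuronal kinesin, and in Dnah17, an axonemal dynein heavy chain, over 7 exons each. The most significant chains began in exon 4 of Dnah8, another axonemal dynein, enriched 48.8-fold (log10 p = -175), and in exon 2 of Il27, which encodes a cytokine subunit, enriched 8.77-fold (log10 p = -114).

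The retained-intron group held the extremes of both measures. All 8 of the most significant short exon peaks belonged to it, as did 19 of the 20 most significant and 9 of the 13 peaks enriched 100-fold or more. The bases that are exon only in a retained-intron transcript outnumbered the exonic bases of the named transcript in 249 of the 371 (67.1%, interval 62.2 to 71.7). In those 249 the median fold enrichment was 5.69 and 136 were strong (54.6%, interval 48.4 to 60.7). In the other 122 the median was 1.75 and 28 were strong (23.0%, interval 16.4 to 31.2). The span of the peak extended only downstream of the named exon in 168 cases, only upstream in 109 and to both sides in 94. In 78 of the 371 the exonic part was under 30 nt. The named exons themselves had an annotated retained-intron exon reaching at least 30 nt beyond them in 27.3% of cases (interval 24.9 to 29.8), against 15.4% (14.9 to 16.0) of the other short internal coding exons of the same transcripts. The share was higher in named exons in each of 4 length classes. At the ends of the range it was 32.9% against 17.5% under 100 nt and 20.9% against 19.8% (9 of 43 against 32 of 162) from 300 to under 400 nt. The named exons include those of the 371 peaks, which end in a retained-intron exon of the gene. Membership therefore partly fixes this comparison. Exons were also pooled over transcripts, so transcripts with many exons weigh more among the other exons.

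Ribosomal protein genes filled much of the top of the list by significance. Rpl37a, a protein of the large ribosomal subunit, had the most significant peak, enriched 2.62-fold with log10 p = -1150 (chr1:72711650-72712350), covering all of exon 2 and 148 nt found only in a retained-intron transcript. Rps14 followed with a 3.19-fold enrichment (log10 p = -750). Rps25, a protein of the small subunit, had peaks over the whole of exons 3 and 2, with log10 p-values of -619 and -216 and fold enrichments of 2.37 and 2.21. The peak at Rpl35a was enriched 3.59-fold (log10 p = -269). Very small p-values thus went with modest fold enrichments in these genes. In all, 32 peaks in 25 ribosomal protein genes, a group chosen after its values were seen, had a median fold enrichment of 1.94 and a highest value of 5.15, at Rps19. All 32 had a p-value under 0.001, 1 was strong, and 25 belonged to the retained-intron group. Many ribosomal protein genes have near-identical processed pseudogenes, so their read counts are uncertain where the alignment could split them.

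Other highly significant peaks differed widely in fold enrichment. Fbl, the rRNA methyltransferase fibrillarin, had the highest fold enrichment of all short exon peaks, 360, at log10 p = -210 (chr7:28172068-28174954). That peak covered the whole of exon 2, with 291 exonic nt in a span of 2887 nt. H2-Ab1, the beta chain of the MHC class II molecule I-A and a gene of antigen-presenting cells, was enriched 1.65-fold (log10 p = -209). Markers of myeloid cells also carried peaks (7 of 7), and the part of such cells in the peak at H2-Ab1 was not tested.

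Among peaks that touched no coding exon of the transcript other than the named one, very high values went with little exonic sequence. Inip, a subunit of the single-strand DNA-binding SOSS complex, had a fold enrichment of 252 with 12 exonic nt in a span of 1110 nt (chr4:59781156-59782265). Rock2, a kinase that acts on the actin cytoskeleton, had 188 with 90 exonic nt in 4694 nt. Senp7, a SUMO protease, had 178 with 11 exonic nt in 1770 nt. In Fryl the fold enrichment was 146 although a single exonic base was touched. Lrp6, a WNT co-receptor, was the exception in extent, since its peak of 108 covered all 126 nt of exon 17. Myb, a transcription factor of blood progenitors, had 108 with 13 exonic nt, Heatr5a had 104 with 30, and Pole, the catalytic subunit of DNA polymerase epsilon, had 101 with 29. Of these 8, Inip ended in another non-coding isoform and the other 7 in a retained-intron transcript. Across all short exon peaks, the 106 with under 30 exonic nt had a median fold enrichment of 3.71, and 49 of them were strong.

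The extremes of exonic length and of the exon length limit showed the same variety. Gen1, a Holliday junction resolvase, was touched by 1 nt of a peak with a fold enrichment of 70.2, and Ccnd2, cyclin D2, by 2 nt of a peak of 1.39. The longest exonic parts were 3012 nt over 22 exons in Abca5, a lipid transporter, 1802 nt over 17 exons in Mroh2a and 1334 nt over 8 exons in Pcnx2, with fold enrichments of 13.3, 13.3 and 26.6. Just inside the limit on exon length were exons of 399 nt in Fam234b (fold enrichment 18.4) and in Tapbp, the MHC class I loading chaperone tapasin (1.25). Just outside it were Igsf8 with 414 nt (1.25) and Matn1 with 417 nt (9.48). Identical values, 9.48-fold at log10 p = -1.69, were shared by 43 of the short exon peaks (3.41%) and by 845 of all peaks (4.08%). None of the 43 lay within the exon, 26 were chains and 12 were in the retained-intron group.

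Along the coding sequence, short exon peaks were somewhat more numerous towards the stop codon and had lower fold enrichments there. By the centre of the exonic part, 5 equal sections of the coding sequence from the start codon on held 192, 244, 251, 294 and 281 peaks. The median fold enrichment over the same sections was 4.03, 3.48, 2.46, 2.15 and 1.66, and the share of strong peaks fell from 43.2% to 18.2%. Within 200 nt before the stop codon lay 211 centres (16.7%, interval 14.8 to 18.9). The rule partly fixes these counts, because peaks that name the first or last exon are left out. A chain is named by its most upstream exon, so chains that begin in the first exon are missing and chains into the last exon are kept. The internal exon sequence in each section was not measured. The centre lay in the coding sequence in all but 1 peak, at T2, a gene of the t-complex region, where it was 261 nt past the stop codon. The median distance from the centre to the nearest exon junction was 29.5 nt, against 38.5 nt over all positions of the named exons. These values are not like for like, because the exonic part of a chain holds a junction by definition. In peaks whose exonic part lay in the named exon alone the median was 38 nt. The median was 65 nt for within-exon peaks, 25 nt for chains and 25.5 nt for the retained-intron group. In long exons, where junctions are farther apart, the median was 212 nt.

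Motif content differed little between peak and background. On the transcribed strand, DRACH (with A, G or T as D, A or G as R, and A, C or T as H) occurred 20.9 times per kb of the exonic part of short exon peaks and GGAC, which is part of a DRACH site unless G follows, 5.27 times per kb. In long exon peaks the densities were 20.1 and 5.98 per kb. The whole named exons held 20.6 DRACH and 4.83 GGAC sites per kb, and the other short internal coding exons of the same transcripts held 21.3 and 4.78. These other exons are not free of peaks, since they include exons that chains run over. At least 1 GGAC was present in 48.4% of named exons (interval 45.7 to 51.2) and in 43.8% (43.0 to 44.6) of the other exons. Within the length classes under 300 nt the shares came closer. They were 31.9% against 29.0% under 100 nt, 48.1% against 47.5% from 100 to under 200 nt, and 122 of 183 against 994 of 1506 from 200 to under 300 nt. Above that they lay further apart, at 90.7% against 79.0% (39 of 43 against 128 of 162). By group, GGAC occurred 4.83 times per kb in within-exon peaks, 5.32 in chains and 5.09 in the retained-intron group. In the 32 peaks of ribosomal protein genes, described above, GGAC occurred 3.18 times per kb and was present in 12. No DRACH site was found in the part of the named exon under the peaks at Senp7, Fryl, Lrp6 and Heatr5a. The named exons had a GC content of 52.0%, against 50.4% in the other exons, and 38.3% against 39.8% had a length divisible by 3. They belonged to every coding isoform of the gene in 49.6% of cases (interval 46.8 to 52.4), against 42.3% (41.6 to 43.1). In all these comparisons exons were pooled over transcripts and not matched by gene. Transcripts with many exons therefore weigh more among the other exons, and the part of this in the differences was not tested.

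Most genes had a single short exon peak, and 790 of the 1098 (71.9%) also had peaks elsewhere. There was 1 such peak in 962 genes, 2 in 116, 3 in 16, 4 in each of 2, 5 in 1 and 8 in 1. A 3' UTR peak was present in 673 of the 1098 genes (61.3%, interval 58.4 to 64.1), against 74.2% of all 10174 coding genes with a peak. The selection partly fixes this difference. The 1098 genes were chosen by a short exon peak, and the 10174 by a peak of any kind, which can be the 3' UTR peak itself. In these 673 genes the strongest short exon peak was set against the strongest 3' UTR peak of the same gene. The median fold enrichment was 1.78 for the former and 2.09 for the latter. The short exon peak was the higher one in 263 (39.1%, interval 35.5 to 42.8). The number of peaks of each kind per gene was not matched. The median difference within a gene was -0.22 on the log2 scale.

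The genes with the most short exon peaks had many exons. Stab1, the scavenger receptor stabilin-1 of macrophages and sinusoidal endothelium, had 8 such peaks on a transcript of 69 exons, with fold enrichments from 3.79 to 24.7 and log10 p-values between -5.57 and -1.38. Of the 8 peaks on Stab1, 5 were chains, 3 belonged to the retained-intron group and none lay within its exon. Dnah8 had 5 peaks on a transcript of 93 exons, with fold enrichments from 2.59 to 70.2. The weakest of the 5, at exon 29, was the only one within the exon. Nf1, the RAS GTPase-activating protein neurofibromin, had 4 peaks with fold enrichments from 3.03 to 19.0. Alms1, a centrosomal and basal body protein, also had 4, with fold enrichments from 3.32 to 22.8, of which 3 belonged to the retained-intron group.

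NK cell genes were compared with the background of all genes. Of all coding genes with a peak, 1096 of 10174 (10.8%) had one there. Among NK receptors and adaptors this was so for 3 of 33 (9.09%, interval 3.14 to 23.6). Klrc2, an activating NKG2 receptor, had a peak of 1.74 at exon 5, Klre1, a lectin-like receptor, one of 1.40 at exon 6, and Klra3, an inhibitory Ly49 receptor, one of 1.26 at exon 5. All 3 values were low, and the Klra and Klrc families have similar copies between which reads can be split. Among cytotoxic granule and effector cytokine genes, 1 of 26 qualified (3.85%, interval 0.682 to 18.9), namely Lyst, the lysosomal trafficking regulator, with a chain of 4 exons, an enrichment of 41.4-fold (log10 p = -51.9). In the list of the IL-15 receptor, JAK-STAT, PI3K-AKT-mTOR and MAPK genes, 2 of 53 qualified (3.77%, interval 1.04 to 12.8), Map2k1, which encodes the kinase MEK1, with 1.31, and Mcl1, a survival factor of the BCL-2 family, with 1.08. All 3 intervals included the 10.8% of all coding genes.

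Lists of genes with general cell functions ranged more widely. Cell cycle and DNA replication genes had the highest share, 13 of 45 (28.9%, interval 17.7 to 43.4), which was the only one of 10 lists whose interval did not include 10.8%. Its peaks included Pole with 101 and 2.10, Cdk6, a G1 kinase, with overlapping peaks of 20.9 and 15.2 at exon 5, Brca1, a DNA repair factor, with 5.69, and Ccne2, cyclin E2, with 2.71, and the median over its 15 peaks was 1.90. The number and length of exons were not matched between the lists. Cytoskeleton, integrin and motor genes had 9 of 50 (interval 9.77 to 30.8%). Dync1h1, the heavy chain of cytoplasmic dynein, reached 34.1 in a chain of 3 exons, while Arpc1b, an Arp2/3 subunit, Myh9, a non-muscle myosin, and Coro1a, coronin, stayed between 1.43 and 1.68. Translation factors and aminoacyl-tRNA synthetases had 9 of 51 (17.6%), among them Abce1, a ribosome recycling factor, with 34.1, Gspt1, the release factor eRF3a, with 25.6, Eif3c with 1.45 and Eef1a1, an elongation factor, with 1.09. Chromatin and histone modifying enzymes had 10 of 66 (15.2%), with 34.1 at the histone demethylase Kdm2a, 4.07 at the remodeller Ino80, 2.88 at the methyltransferase Ehmt2 and 1.23 at the remodeller Smarca5.

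**Figure D5:**
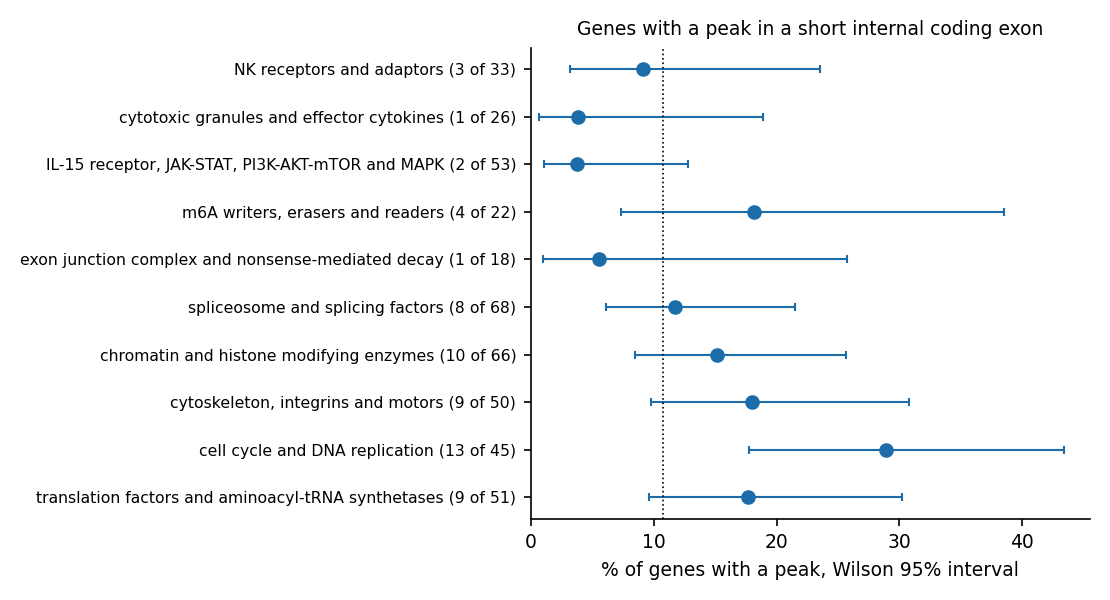
Share of genes with a peak that had one in a short internal coding exon (x axis, %) for 10 gene lists (y axis, with gene counts), with 95% Wilson intervals and a dotted line at the 10.8% of all coding genes with a peak. The interval of cell cycle and DNA replication genes lies to the right of the line and the other 9 intervals include it.

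The machinery of the mark and of splicing itself was represented by a few genes. Among m6A writers, erasers and readers, 4 of 22 qualified (18.2%, interval 7.31 to 38.5), and none of them was a writer or an eraser. Hnrnpa2b1, an RNA-binding protein described as a nuclear reader, had peaks of 2.01 and 1.78 at exons 8 and 7, with log10 p-values of -187 and -67.0. Eif3a, a subunit of the initiation factor eIF3, had a within-exon peak of 1.32 at exon 17, and Fmr1, an RNA-binding repressor of translation, had a peak of 2.19 at exon 15 that ended in a retained-intron transcript. Ythdc2, a helicase and reader, reached 3.79 (log10 p = -1.31), close to the weakest value in the list. Of genes of the exon junction complex and nonsense-mediated decay, 1 of 18 qualified (5.56%), Upf3a, with a chain of 4 exons and a fold enrichment of 1.91. Spliceosome and splicing factor genes had 8 of 68 (11.8%), among them Sf3a3 with a fold enrichment of 1.32, Sfpq with 1.18 and the helicase gene Ddx23, whose peak at exon 16 had log10 p = -9.44.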

How the data were processed

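The authors purified and fragmented poly(A) RNA, immunoprecipitated it with an m6A antibody, trimmed the reads, aligned them with HISAT2, called peaks with exomePeak and annotated them with ChIPseeker. The fold enrichment in the deposited list is their ratio of immunoprecipitate over input, and the deposited significance is a score equal to log10 of the unadjusted peak p-value. How replicates were combined and whether libraries were stranded is not given in the sources used here. The list has 0 columns with a value per sample. It held 20751 rows, of which 24 repeated others.

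Named exons, exonic parts and isoforms were taken from the GENCODE annotation of GRCm38, the build of the files, with Python 3.11.15, pandas 2.3.3 and pysam 0.24.0. Of 5848 peaks labelled as exonic, 21 named a transcript that was not found there and 16 one with another exon count, and these were left out. For 3 members the named transcript belonged to another gene, and 62 members (4.91%) overlapped exons of other genes. A member counted once in the group of its ends. Position, overlap and motif functions were tested on simulated data. Intervals are 95% Wilson intervals (scipy 1.17.1).

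Members and gene lists were chosen with earlier results of these data known. Named are the 8 members with the highest fold enrichment (p-value under 0.001, no other exon touched), the 8 most significant, the 3 genes with the most members (a tie at 4 peaks makes 4 genes), up to 4 genes per list by significance, the 3 shortest and 3 longest exonic parts and the 2 nearest exons on each side of the length limit. Some results that this rule selects are not reported here. Members named beyond this rule are marked as chosen after their values were seen. Alternatives changed the exon length limit, the fold and p-value thresholds, the exon model, the motif, and the set of members.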

Additional observations from a re-analysis of the deposited data

How the results depend on the processing

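Of 49 alternative settings over 8 results, 29 stayed within the interval of the reported value (within 1.5 times for the count), and 6 were added after the data were seen. The count of 1263 became 762 with a p-value under 0.001 and 699 at 2-fold or more. The strong share of 31.5% became 45.0% at a threshold of 3, 18.5% at 10 and 2.80% for spans wholly within the exon (added). The median fold of 2.41 became 2.04 with a p-value under 0.001 and 1.53 for such spans (added). The share of peaks whose exonic part lay in the named exon alone, 41.0%, became 37.2% with exons of any coding transcript and 38.2% among strong peaks. The DRACH density of 20.9 per kb became 5.27 for GGAC, 4.54 for GGACH, 19.9 in the named exon only, 21.7 in strong peaks, 19.96 in peaks whose exonic part lay in the named exon alone and 18.2 in spans wholly within it (added). The log2 difference from long exons of -0.21 turned to 0.19 with a p-value under 0.001 and became -0.55 for spans wholly within the exon (added). The share of centres in the coding sequence, 99.9%, fell to 19.9% by the centre of the genomic span, which often lies in an intron. The junction distance of 29.5 nt became 38 nt in peaks whose exonic part lay in the named exon alone and 27 nt in exons under 200 nt. Stricter thresholds and narrower sets keep fewer peaks by construction. The strong share likewise cannot fall at a lower fold threshold or rise at a higher one. Every GGACH site is also a DRACH site, so the density of GGACH cannot be the higher one. The cause of the other shifts was not tested.

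No paired analysis was possible because each peak has a single value for the 4 libraries, and for the same reason no replicate was left out. The depth of the libraries is unknown, which limits what the weaker of the 1263 peaks show.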
